A study of Mus musculus with 6 samples.

Results

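RNA sequencing of mouse F9 teratocarcinoma cells was used to ask which genes differ between a line carrying a short hairpin RNA against the retinoid X receptor (shRxr) and a line carrying a control hairpin against GFP (shGFP), both without added retinoic acid (RA). The comparison set the untreated library shRxr_UT against the untreated library shGFP_UT over every gene of the table. Of 25904 deposited genes, 12332 had a mean of at least 20 normalised reads over the 6 libraries of the study and were compared. A normalised read is 1 read per 10000000 reads counted in genes, and no measured difference was used to choose the genes. Besides this pair the study holds shCtbp2_UT, from a line with a hairpin against the corepressor Ctbp2, and shRxr_RA, shCtbp2_RA and shGFP_RA, the same 3 lines after 48 hours in 1 µM all-trans RA. All 6 groups grew in 8% charcoal-stripped serum, which holds little retinoid, and each group is 1 library. The labels do not name the receptor gene that the shRxr hairpin targets. Whether a line is a clone or a pool is not given in the sources used here.

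RA receptors (RAR) bind DNA as pairs with a retinoid X receptor (RXR). In textbook accounts such a pair sits on its target genes also without ligand, where it can hold corepressors and keep the gene low, and ligand swaps the corepressors for coactivators. F9 cells are a classic model of this pathway: untreated they resemble undifferentiated embryonal cells, and RA turns them into endoderm-like cells while known targets such as Stra8, Cyp26a1, Rarb, Cdx1 and the anterior Hox genes come on. The question of the untreated comparison is therefore whether losing RXR raises RA targets in the absence of ligand.

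The promoters of 3 RA targets with different untreated behaviour are printed here, from RefSeq on build GRCm38.p6, each from 250 bases before to 50 bases after the gene's start and read along the gene. Stra8 (chr6:34920698-34920997, plus strand) was the gene with the highest untreated log2 difference. Rarb (chr14:16575427-16575726, minus strand) was low but above the control, and Cyp26a1 (chr19:37697558-37697857, plus strand) was not above it. Capitals mark every match, on either strand, to the receptor hexamer AGGTCA, to the form GGGTCA, to the form AGTTCA or to the form GGTTCA.
Stra8: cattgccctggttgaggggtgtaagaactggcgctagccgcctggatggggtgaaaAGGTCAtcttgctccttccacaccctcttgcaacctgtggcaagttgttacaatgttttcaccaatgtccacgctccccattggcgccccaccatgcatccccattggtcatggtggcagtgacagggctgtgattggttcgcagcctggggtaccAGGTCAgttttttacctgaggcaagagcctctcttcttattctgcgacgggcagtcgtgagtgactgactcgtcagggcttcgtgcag
Rarb: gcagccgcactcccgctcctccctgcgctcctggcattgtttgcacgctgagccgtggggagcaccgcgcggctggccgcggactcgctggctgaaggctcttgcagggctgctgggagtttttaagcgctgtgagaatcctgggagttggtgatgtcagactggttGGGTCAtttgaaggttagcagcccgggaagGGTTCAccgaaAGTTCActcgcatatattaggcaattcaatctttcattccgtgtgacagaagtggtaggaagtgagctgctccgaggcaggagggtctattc
Cyp26a1: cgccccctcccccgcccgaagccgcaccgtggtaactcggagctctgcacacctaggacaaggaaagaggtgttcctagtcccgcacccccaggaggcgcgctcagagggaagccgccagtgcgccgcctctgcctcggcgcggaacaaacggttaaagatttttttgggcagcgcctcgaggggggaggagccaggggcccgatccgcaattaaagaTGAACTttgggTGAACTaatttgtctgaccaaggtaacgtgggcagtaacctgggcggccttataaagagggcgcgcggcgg
The Rarb and Cyp26a1 windows each hold a direct repeat of the hexamer spaced by 5 bases (DR5), the classic RAR-RXR element. It begins 53 bases before the start of Rarb, on the plus strand of the printed sequence, and 32 bases before that of Cyp26a1, on the other strand. The Stra8 window holds 2 hexamers and no direct repeat with a spacing of 1, 2 or 5 bases. Of 32851 RefSeq mouse promoters of this length 43.7% hold at least 1 of the hexamers, 0.0974% hold a DR5, 0.268% a repeat spaced by 2 and 0.222% a repeat spaced by 1. A match is a description of the letters and not a bound site.

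Rxra, which encodes RXR alpha, was lower in the shRxr line. Rxra (ENSMUSG00000015846, mm9 chromosome 2, 27531960 to 27618477) had a level of 73.7 normalised reads in shRxr_UT, against 372 in shCtbp2_UT and 520.3 in shGFP_UT. It was 7.06-fold lower in shRxr_UT than in shGFP_UT, with a 95% counting interval of 5.65 to 8.93 that covers the sampling of reads and not differences between cultures. With RA it stood at 82.4 in shRxr_RA, 821 in shCtbp2_RA and 805 in shGFP_RA, so both shRxr libraries were below the other 4. Rxrb, the second RXR gene, was at 638 in shRxr_UT and 605 in shGFP_UT, a ratio of 1.05 with an interval of 0.952 to 1.17. Rxrg, the third, had 13 reads in shRxr_UT and 23 in shGFP_UT and was below the minimum for comparison. The RXR partners Rara and Rarg stood at 1162 and 3766 in shRxr_UT, against 1091 and 2791 in shGFP_UT, which is 1.06-fold (0.987 to 1.15) and 1.35-fold (1.29 to 1.41). Rarb, the third RAR gene, stood at 12.6 in shRxr_UT and 3.22 in shGFP_UT, from 15 and 4 reads, a ratio of 3.90 with an interval of 1.24 to 16.1. On the log2 scale used below, which adds 10 to each level and so shrinks the differences of low genes, Rarb differed by 0.77, short of 2-fold, and Rxra was the 1 receptor gene past it.

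Across all genes the untreated pair differed little, and most genes that differed were higher in the knock-down line. The log2 difference, taken here and below on normalised reads plus 10, had a median of 0.01, and its 1st and 99th percentiles were -0.62 and 0.77. With RA the same percentiles of shRxr_RA over shGFP_RA were -1.33 and 1.36. At least 2-fold, 48 genes were higher (0.389% of those compared) and 8 were lower (0.0649%) in shRxr_UT. In the RA pair 461 were higher (3.74%) and 323 lower (2.62%), and between shCtbp2_UT and the same shGFP_UT library 172 were higher (1.39%) and 288 lower (2.34%). Just inside the 2-fold line on the high side were Tmem181b-ps, at 137 in shRxr_UT and 63.6 in shGFP_UT, and Zan, and just outside it Hoxb13, at 20.9 and 5.64, and Ubash3b. Tmem181b-ps is named as a pseudogene but annotated as protein-coding, and it overlaps Gm2792 and Gm17692, so its reads may belong in part to another gene. After a correction of each library for the GC content and length of genes the counts were 37 higher and 12 lower, so the share of higher genes among those 2-fold apart was 75.5%, against 85.7% without it.

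**Figure D1:**
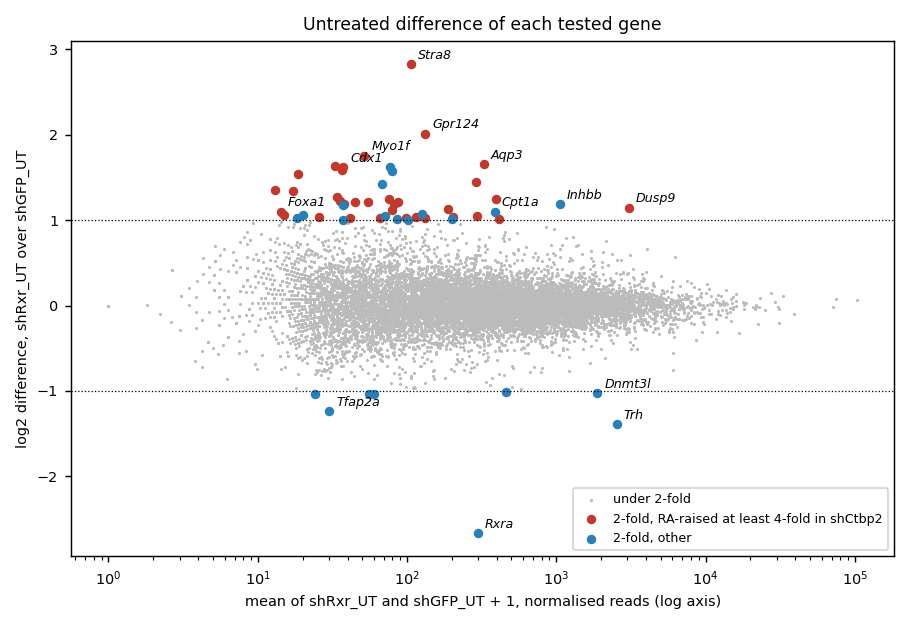
Each point is 1 of 12332 genes, with the mean of shRxr_UT and shGFP_UT plus 1, in normalised reads, on a log axis, and the untreated log2 difference on the vertical axis. Red points are genes at least 2-fold apart that RA raised at least 4-fold in the shCtbp2 line, blue points other genes at least 2-fold apart, and dotted lines mark 2-fold; 34 of the 48 points above the upper line are red.

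Stra8, which germ cells need to enter meiosis and which was named for its induction by RA, was the gene with the highest log2 difference, 2.83. Stra8 (ENSMUSG00000029848, mm9 chromosome 6, 34870163 to 34889342) stood at 193 in shRxr_UT, 13.2 in shCtbp2_UT and 18.5 in shGFP_UT, from 230, 16 and 23 reads. It was 10.4-fold higher in shRxr_UT than in shGFP_UT (6.76 to 16.7). The shRxr_UT level was above both other untreated libraries and far below the RA libraries, which held 4259 (shRxr_RA), 4587 (shCtbp2_RA) and 6428 (shGFP_RA). Untreated, Stra8 was therefore at 4.52% of its RA level in shRxr, 0.289% in shCtbp2 and 0.288% in shGFP. In bulk RNA a low level in every cell and a high level in few cells cannot be told apart, here or for the genes below.

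Gpr124, an adhesion receptor of vessel formation in the brain, came next with a log2 difference of 2.01. Gpr124 (ENSMUSG00000031486, mm9 chromosome 8, 28196313 to 28233890) stood at 216 in shRxr_UT, 24.0 in shCtbp2_UT and 45.9 in shGFP_UT, which is 4.70-fold higher in shRxr_UT than in shGFP_UT (3.52 to 6.38). Its untreated level was 16.6% of the RA level in shRxr, 1.39% in shCtbp2 and 2.46% in shGFP, since the RA libraries stood at 1302, 1721 and 1866 in the same order of lines. Cdx1, a caudal homeobox gene that acts on Hox genes (ENSMUSG00000024619, mm9 chromosome 18, 61178516 to 61195853), stood at 60.3 in shRxr_UT, 14.1 in shCtbp2_UT and 12.9 in shGFP_UT. It was 4.68-fold higher (2.69 to 8.61) and at 7.89% of its RA level in shRxr, 0.912% in shCtbp2 and 1.29% in shGFP. For both genes, as for Stra8, the untreated shRxr library stood between the other untreated libraries and the RA libraries, with no overlap of the counting intervals with either.

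Inhbb, which encodes a subunit of activin B and inhibin B, behaved differently with RA. Inhbb (ENSMUSG00000037035, mm9 chromosome 1, 121312042 to 121318825) stood at 1469 in shRxr_UT, 467 in shCtbp2_UT and 639 in shGFP_UT, a 2.30-fold difference from shGFP_UT (2.11 to 2.50). With RA it stood at 2152 in shRxr_RA, 1877 in shCtbp2_RA and 678 in shGFP_RA. In the control line it was thus at nearly the same level with and without RA, while both shRxr libraries were above both shGFP libraries. Of the other 18 compared genes in the list of activin, inhibin and Nodal signalling none was 2-fold apart, and the list's median was 0.04. The list leaves out Tgfbr3, which was also 2-fold higher untreated, at 156.5 in shRxr_UT and 70.9 in shGFP_UT (2.21-fold, 1.71 to 2.88).

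**Figure D2:**
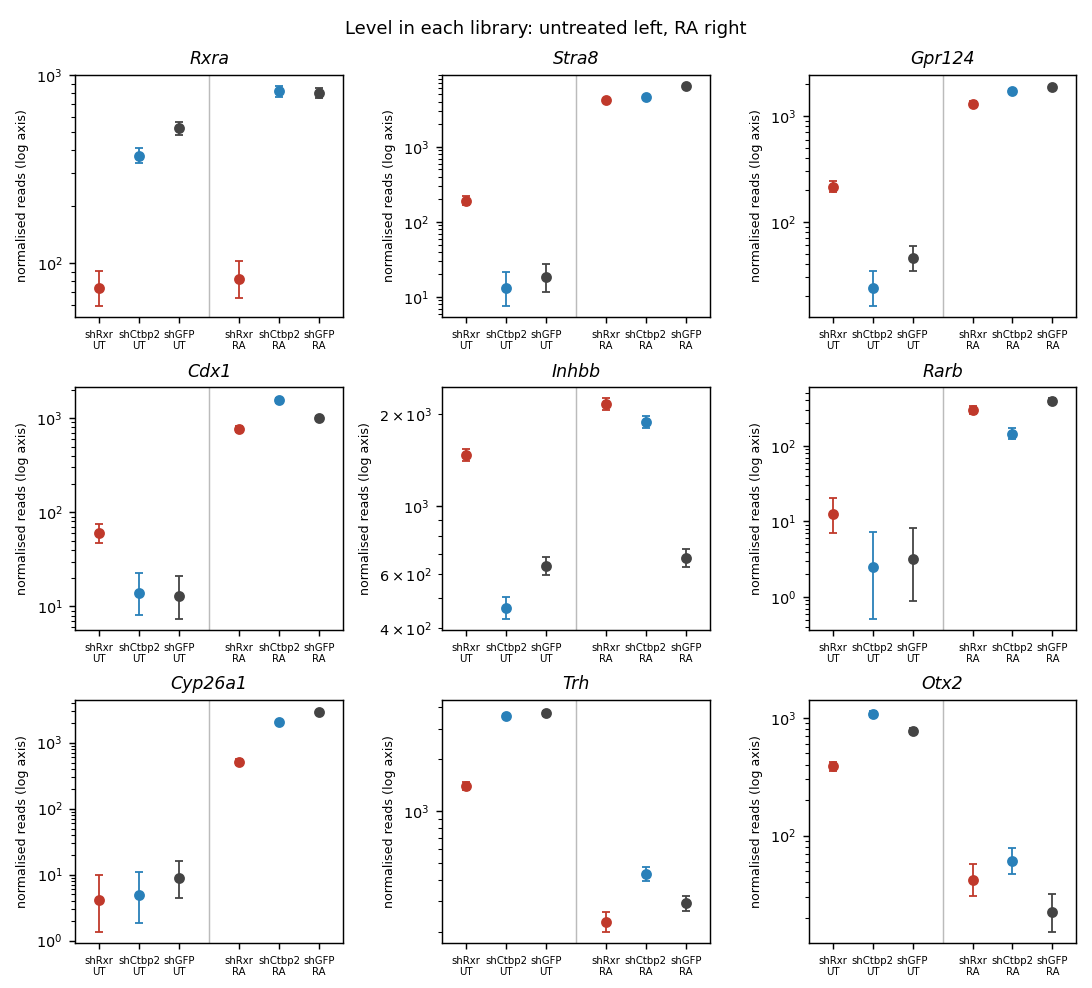
Normalised reads (log axis) of 9 genes in the 6 libraries, untreated on the left and RA on the right of each panel, in the order shRxr (red), shCtbp2 (blue) and shGFP (grey); bars are 95% exact Poisson counting intervals. Stra8, Gpr124 and Cdx1 in shRxr_UT lie between the other untreated libraries and the RA libraries, Cyp26a1 does not, and Trh and Otx2 in shRxr_UT lie below the other untreated libraries.

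To ask how far the 48 higher genes are RA genes, RA response was taken from shCtbp2_RA over shCtbp2_UT, since those libraries share nothing with the untreated pair compared. Of the 48 higher genes 34 (70.8%) were raised at least 4-fold by RA in the shCtbp2 line, 43 at least 2-fold and 22 at least 8-fold, and 0 were lowered 2-fold. Over all genes 388 (3.15%) were raised at least 4-fold, 1864 (15.1%) at least 2-fold and 107 (0.868%) at least 8-fold, and 2377 (19.3%) were lowered at least 2-fold. Seen from the RA genes, 34 of the 388 (8.76%) and 22 of the 107 (20.6%) were higher in shRxr_UT, against 0.389% of all genes. In both sets 0 were lower. These RA genes were low untreated, with a median in shGFP_UT of 36.2 for the 388 and 26.6 for the 107, against 318 over all genes. The minimum mean was taken over all 6 libraries, so a gene could reach it through its RA level. Low genes have more counting scatter, and no comparison with genes of like level was made. When RA genes were taken from shGFP_RA over shCtbp2_UT, an alternative chosen after seeing the data, 33 of 667 were higher and 0 lower. The 48 genes lie on 18 chromosomes, and their median level was 110.5 normalised reads in shRxr_UT, 31.4 in shCtbp2_UT and 37.0 in shGFP_UT.

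Among the RA genes that were higher untreated, Aqp3, a water and glycerol channel, stood at 501 in shRxr_UT, 232 in shCtbp2_UT and 152 in shGFP_UT, 3.29-fold higher (2.79 to 3.89). The collagen genes Col13a1 and Col9a2 stood at 53.6 and 557 in shRxr_UT, against 10.5 and 228 in shGFP_UT, which is 5.12-fold (2.79 to 10.1) and 2.44-fold (2.12 to 2.82). Tll1, a tolloid-like protease that processes matrix proteins, was at 31.0 in shRxr_UT, 2.48 in shCtbp2_UT and 4.03 in shGFP_UT. All 4 were above both other untreated libraries. The tyrosine kinase receptor gene Pdgfrb stood at 78.7 in shRxr_UT, 29.0 in shCtbp2_UT and 28.2 in shGFP_UT (2.79-fold, 1.87 to 4.24). Ptges, which makes prostaglandin E, stood at 109.6 in shRxr_UT, 33.9 in shCtbp2_UT and 40.3 in shGFP_UT. Dusp9, a phosphatase that switches off ERK kinases, was the most abundant of the 48 genes, at 4232 in shRxr_UT, 1009.9 in shCtbp2_UT and 1905 in shGFP_UT, 2.22-fold higher (2.12 to 2.33). H2afy2, a macroH2A histone variant, was at 429 in shRxr_UT, 109 in shCtbp2_UT and 151 in shGFP_UT (2.85-fold, 2.41 to 3.39), and it overlaps Aifm2, whose reads may not be told apart. Msx2, a homeobox gene downstream of BMP, was at 259 in shRxr_UT, 50.5 in shCtbp2_UT and 113 in shGFP_UT (2.30-fold, 1.88 to 2.83). Each of these genes was higher in shRxr_UT than in either other untreated library. The forkhead regulator of endoderm Foxa1, from 26 reads or fewer in each untreated library, was at 21.8 in shRxr_UT, 4.96 in shCtbp2_UT and 4.83 in shGFP_UT (4.50-fold, 1.81 to 13.4).

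A few of the 48 genes are neighbours. Cdx1 and Pdgfrb lie 8951 bases apart on chromosome 18, and H2afy2 and Col13a1 54089 bases apart on chromosome 10. Gm15055 (ENSMUSG00000085412), at 58.6 in shRxr_UT, 6.62 in shCtbp2_UT and 12.9 in shGFP_UT, was 4.55-fold higher (2.61 to 8.39) and was raised at least 4-fold by RA in the shCtbp2 line. Cpt1a was among the genes of the 48 that RA did not raise 2-fold in the shCtbp2 line. This gene, which loads fatty acids into mitochondria and is a known target of PPAR-RXR pairs, stood at 529.8 in shRxr_UT, 275 in shCtbp2_UT and 242 in shGFP_UT (2.19-fold, 1.91 to 2.52).

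Direct RA targets ranged from above to below the control without ligand. Of 35 direct RA targets in a list drawn up for this comparison, 32 could be compared, 5 were at least 2-fold higher (Stra8, Gpr124, Cdx1, Ptges, Foxa1), against 0.389% of all genes, and 0 were lower. The list was drawn up with earlier results of these data known. It holds the markers Stra8, Gpr124 and Cdx1, so its count is not independent support. Of the 32, 7 had fewer than 10 reads in both libraries of the pair, too few to reach 2-fold on the scale used. The list's median log2 difference was 0.26, against 0.01 over all genes, with 22 members above 0 and 9 below. Cyp26a1, which breaks RA down and is the classic RA-induced gene, stood at 4.18 in shRxr_UT, 4.96 in shCtbp2_UT and 8.86 in shGFP_UT. Its ratio to shGFP_UT was 0.472, with an interval of 0.129 to 1.47 that includes no difference. Stra6, the retinol uptake receptor, was at 1.67 in shRxr_UT, 0.827 in shCtbp2_UT and 6.44 in shGFP_UT, from 2, 1 and 8 reads. Cyp26b1 was at 3.35, 4.14 and 7.25 in the same order, from 4, 5 and 9 reads. The ratios of Stra6 and Cyp26b1 to shGFP_UT were 0.260 (0.0269 to 1.30) and 0.462 (0.104 to 1.65), both with intervals that include no difference. None of these 3 genes had its highest untreated level in shRxr_UT. Zfp703, Pmp22 and the endoderm regulator Gata6, at 17.6, 17.6 and 27.6 in shRxr_UT and 23.4, 19.3 and 29.8 in shGFP_UT, had ratios whose intervals also included 1. Plat, a plasminogen activator that RA induces in F9 cells, had the lowest untreated difference of the list, -0.74. It stood at 7.53 in shRxr_UT, 3.31 in shCtbp2_UT and 19.3 in shGFP_UT, a ratio to shGFP_UT of 0.390 with an interval of 0.159 to 0.868 that does not include 1.

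Most Hox genes had too few untreated reads for the comparison. Of 15 anterior Hox genes 10 reached the minimum mean, and 9 of them had fewer than 10 reads in both libraries of the pair, so that they could not be 2-fold apart on the scale used. Hoxa5, Hoxa3 and Hoxb4 were at 6.70, 5.86 and 5.02 in shRxr_UT and 2.42, 2.42 and 3.22 in shGFP_UT, and each of these ratios had an interval that included 1. Hoxb2, Hoxb5 and Hoxb6 had 0 reads in all 3 untreated libraries, which allows up to 2.51 normalised reads in shRxr_UT, 2.48 in shCtbp2_UT and 2.42 in shGFP_UT. Of 23 posterior Hox and Cdx genes 10 reached the minimum, 5 of them with fewer than 10 reads in both libraries, and 1, Cdx1, was 2-fold higher. Hoxb13, just short of the 2-fold line, stood at 20.9 in shRxr_UT, 7.44 in shCtbp2_UT and 5.64 in shGFP_UT.

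The RA-raised genes below the 2-fold line leaned the same way. These 354 genes had a median untreated log2 difference of 0.37, with 290 above 0 and 60 below, against 6321 above and 6006 below over all genes. For all 388 genes raised at least 4-fold by RA in the shCtbp2 line the median was 0.41. The 220 genes lowered at least 4-fold by RA (1.78% of those compared) had a median of -0.29, with 14 above 0 and 206 below, 0 of them 2-fold higher and 3 lower. In bins of RA response the median untreated difference went up in order. The bin most lowered by RA (30 genes) had -0.59 and the middle bin (4102 genes) 0.02. The bin most raised (107 genes) had 0.43. The bins also differed in level, with a median in shGFP_UT of 413 normalised reads in the bin most lowered and 26.6 in the bin most raised. For the 107 genes raised at least 8-fold the median untreated level was 18.8% of the RA level in shRxr, 4.55% in shCtbp2 and 7.52% in shGFP. The shCtbp2 share belongs to the libraries that chose these genes, and the shRxr share also holds the RA level of shRxr_RA, which for these genes had a median log2 difference of -0.84 from shGFP_RA.

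GC content moved with both measures. Across 12133 genes with a known GC content Spearman's rho with GC content was 0.24 for the untreated difference and 0.62 for the RA response of the shCtbp2 line, genes not being independent. The 34 RA genes that were higher untreated had a median GC content of 55.5% and the other 354 RA genes 55.7%. After correcting both measures for GC content and length the bin medians ran from -0.73 to 0.52, and 22 of the 267 genes then raised at least 4-fold by RA were higher. With RA response taken from shGFP_RA over shCtbp2_UT the bin medians ran from -0.48 to 0.29. The RA pair, shRxr_RA over shGFP_RA, moved with GC content the other way and more strongly, with a rho of -0.52. Genes at least 2-fold higher in that pair had a median GC content of 40.8% and genes 2-fold lower 54.9%, against 50.1% over all genes.

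**Figure D3:**
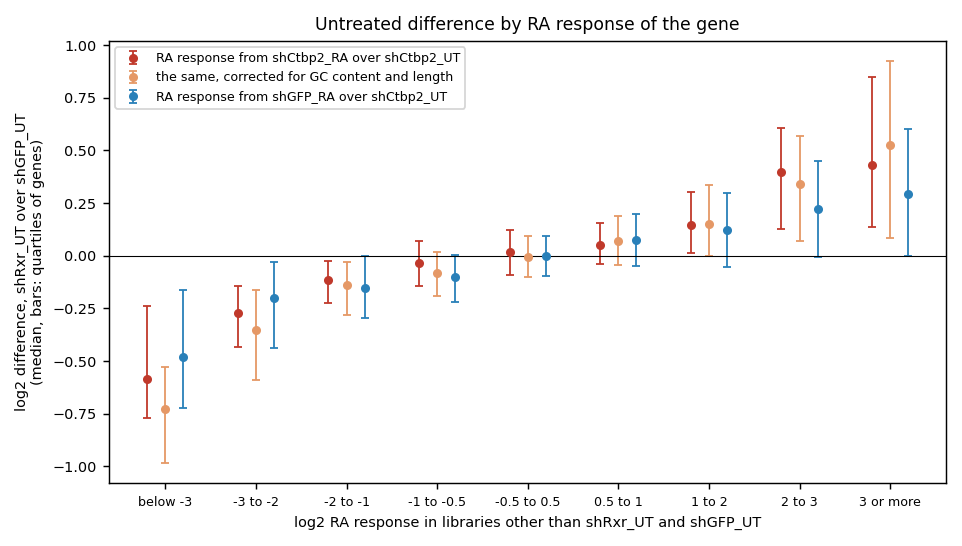
Median untreated log2 difference (points) with quartiles of genes (bars) in bins of log2 RA response, for the RA response of the shCtbp2 line (red), the same with both measures corrected for GC content and length (orange), and shGFP_RA over shCtbp2_UT (blue). In all 3 versions the median goes up from the genes most lowered by RA to those most raised, between -0.73 and 0.52.

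The 8 lower genes were fewer. Besides Rxra they were Trh, Tfap2a, Thy1, Irgm1, Rasgrp1, Dnmt3l and Slc1a3, and 6 of the 8 were lowered at least 2-fold by RA in the shCtbp2 line, against 19.3% of all genes, and 3 of them at least 4-fold, against 1.78%. Trh, the precursor of thyrotropin-releasing hormone (ENSMUSG00000005892, mm9 chromosome 6, 92192055 to 92194644), stood at 1396 in shRxr_UT, 3543 in shCtbp2_UT and 3670.2 in shGFP_UT. It was 2.63-fold lower (2.49 to 2.78), and the RA libraries were lower still, at 228 in shRxr_RA, 432 in shCtbp2_RA and 292 in shGFP_RA. Dnmt3l, a cofactor of DNA methylation in early embryos and germ cells, stood at 1236 in shRxr_UT, 3018 in shCtbp2_UT and 2529 in shGFP_UT (2.05-fold lower, 1.92 to 2.18). It overlaps Aire, which may share its reads. Tfap2a, an AP-2 transcription factor, was at 13.4 in shRxr_UT, 96.8 in shCtbp2_UT and 45.1 in shGFP_UT. Slc1a3, a glutamate transporter, was at 301 in shRxr_UT, 437 in shCtbp2_UT and 620.2 in shGFP_UT (2.06-fold lower, 1.81 to 2.34). In each of these genes shRxr_UT was below both other untreated libraries. Just outside the line were Grhl2, a regulator of epithelial genes, at 167 in shRxr_UT and 342 in shGFP_UT, and Otx2, a regulator of the anterior epiblast, at 388 in shRxr_UT, 1078 in shCtbp2_UT and 772 in shGFP_UT (1.99-fold lower, 1.78 to 2.23).

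With RA the 48 genes higher untreated lay on both sides of the control. Of the 48 genes higher untreated 24 were above 0 and 24 below in shRxr_RA over shGFP_RA, and 5 were at least 2-fold higher, which is 10.4% of the untreated list, against 3.74% of all genes, and 1.08% of the RA list. These were Inhbb, Cpt1a, Nhs, Zan and 1110002J07Rik, of which Nhs and Zan lie outside the rule for named genes. Cpt1a stood at 446 in shRxr_RA, 482 in shCtbp2_RA and 208 in shGFP_RA. Zan, a sperm protein gene that overlaps Ephb4, was at 51.9 in shRxr_UT and 20.9 in shGFP_UT, and at 78.3 in shRxr_RA and 13.5 in shGFP_RA. On the log2 scale used, RA raised none of these 5 genes 4-fold in the shCtbp2 line, with Inhbb just short of it at a log2 difference of 1.99. For RA genes the RA pair gave other values: the 34 RA genes that were higher untreated had a median of -0.05 in the RA pair, and the other 354 RA genes -0.72. Stra8 and Gpr124, highest untreated, had log2 differences of -0.59 and -0.52 with RA. Of the genes lower untreated 1, Rxra, was lower with RA, 12.5% of the untreated list, against 2.62% of all genes, and 0.310% of the RA list. No gene lower untreated was 2-fold higher with RA. The RA-pair values here were not corrected for GC content, with which that pair moved (Spearman's rho -0.52).

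**Figure D4:**
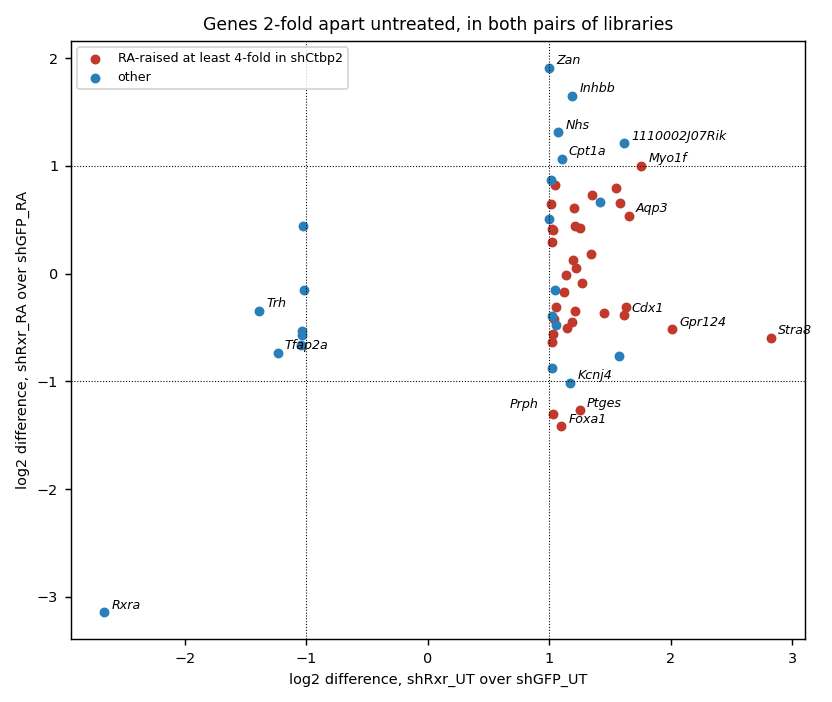
Each point is 1 of the 56 genes at least 2-fold apart untreated, with the untreated log2 difference on the horizontal and the RA log2 difference on the vertical axis; dotted lines mark 2-fold. Rxra lies at the lower left, Inhbb, Cpt1a, Nhs, Zan and 1110002J07Rik at the upper right, and RA genes (red) lie on both sides of 0 with RA, 16 above and 18 below.

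A test was possible only where other libraries stood in as replicates. A limma trend model fitted to all 6 libraries, with terms for line and treatment, asks for a shRxr difference at both treatments, and after Benjamini-Hochberg adjustment over all genes it called 0 genes raised (0%) and 1 lowered (0.00811%), with 152 genes at an unadjusted p under 0.05. The lowered gene was Rxra (log2 difference -2.90, SE 0.35, adjusted p = 0.015, lower in both of 2 shRxr libraries). Stra8 (1.12, SE 0.62) and Gpr124 (0.75, SE 0.56) did not pass in that model, each with an adjusted p of 1.00. With limma, 0 genes were called without shGFP_RA, shCtbp2_UT or shCtbp2_RA, the adjusted p of Rxra then being 0.47, 0.099 and 0.10. Without shGFP_UT limma called 1 gene lowered, Cyp26b1, and Rxra had an adjusted p of 0.19. Without shRxr_UT, which leaves shRxr_RA alone in its line, limma called 5 raised and 20 lowered, Rxra among the 20. Without the shRxr_RA library, which sets shRxr_UT alone against the fitted untreated level of the control line, limma called 2 genes raised (0.0162%) and 1 lowered (0.00811%), with 139 at an unadjusted p under 0.05. These were Stra8 (log2 difference 2.78, SE 0.49, adjusted p = 1.7e-04), Gpr124 (2.17, SE 0.49, adjusted p = 0.037) and Rxra (-2.54, SE 0.49, adjusted p = 0.0015). Cdx1 (1.76, SE 0.49, adjusted p = 0.53) and Inhbb (1.66, SE 0.50, adjusted p = 1.00) did not pass. That model has 1 residual degree of freedom and assumes that the lone shRxr_UT library varies like the others. No fit here holds replicate cultures, so none of these p-values measures variation between cultures.

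No compared gene in the lists of machinery around the receptors was 2-fold apart. Over all genes 0.389% were 2-fold higher and 0.0649% lower, so counts of 0 in lists this short are near the shares over all genes. Of 15 receptor corepressors, among them Ncor1 and the Ctbp genes, 0 were 2-fold apart, with a median of 0.00 and a range from -0.23 (the deacetylase Hdac2) to 0.25 (Nrip1). Of 10 coactivators 0 were 2-fold apart, from -0.14 (Ncoa1) to 0.15 (Ncoa6). Of 13 other receptors that pair with RXR 6 could be compared and 0 were 2-fold apart, with Nr4a2 at 31.0 in shRxr_UT and 16.9 in shGFP_UT. Genes of retinoid uptake, binding and breakdown, 12 compared of 20, had 0 members 2-fold apart and a median of -0.06.

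The lists of targets of other RXR pairs did not form a common shift past 2-fold. With 0.389% of all genes 2-fold higher and 0.0649% lower, lists this short would hold few or no such genes in any case. Of 11 compared LXR targets, which handle cholesterol and lipid, 0 were 2-fold apart, 10 were below 0 and the median was -0.12, with the cholesterol exporter Abcg1 lowest at 305 in shRxr_UT and 419 in shGFP_UT. Of 13 compared PPAR targets 1, Cpt1a, was higher, 9 were above 0 and the median was 0.13. The list leaves out Cidea, which was 2-fold higher, from 26 reads in shRxr_UT and 3 in shGFP_UT (9.01-fold, 2.76 to 46.5). The list of 22 meiosis and germ line genes had 13 compared members, of which 1, Stra8, was higher, and a median of 0.02.

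Lists of cell identity genes had few members 2-fold apart, as did all genes, of which 0.389% were higher and 0.0649% lower. Of 30 pluripotency genes 1, Dnmt3l, was lower and 0 higher, with a median of -0.08, and Pou5f1 stood at 18536 in shRxr_UT and 18172 in shGFP_UT. Of 12 primitive endoderm regulators 1, Foxa1, was higher and the median was -0.18, and of 19 parietal endoderm and basement membrane genes 0 were 2-fold apart (median 0.02). Of 8 endoderm markers 6 were below shGFP_UT and 2 above. The lowest were Dab2, at 63.6 in shRxr_UT and 104 in shGFP_UT, Lama1 at 830.3 and 1248 and Sox17 at 11.7 and 22.6. Their log2 differences were -0.63, -0.58 and -0.58. The 2 above were Sox7, at 333 in shRxr_UT and 271 in shGFP_UT, and Col4a1, at 1990 and 1872, with log2 differences of 0.29 and 0.09. The mesoderm and primitive streak list had 3 compared members of 13, 0 of them 2-fold apart, and the lowest median of all lists, -0.49. Its lowest member was Evx1, a homeobox gene of the primitive streak, at 72.8 in shRxr_UT and 151 in shGFP_UT (-0.96). Of 11 compared neuroectoderm genes 0 were 2-fold apart, with a median of 0.29 and a range from -0.98 (Otx2) to 0.89 (Irx3). Genes of epithelial junctions and keratins leaned low, with 13 of 18 below 0, 0 at least 2-fold apart and a median of -0.22. In the fibroblast list Pdgfrb was higher and Thy1, at 35.2 in shRxr_UT, 131 in shCtbp2_UT and 83.0 in shGFP_UT, was lower. In the trophoblast list Tfap2a was lower, and in that of BMP and Id genes Msx2 was higher among 15 compared (median 0.02).

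**Figure D5:**
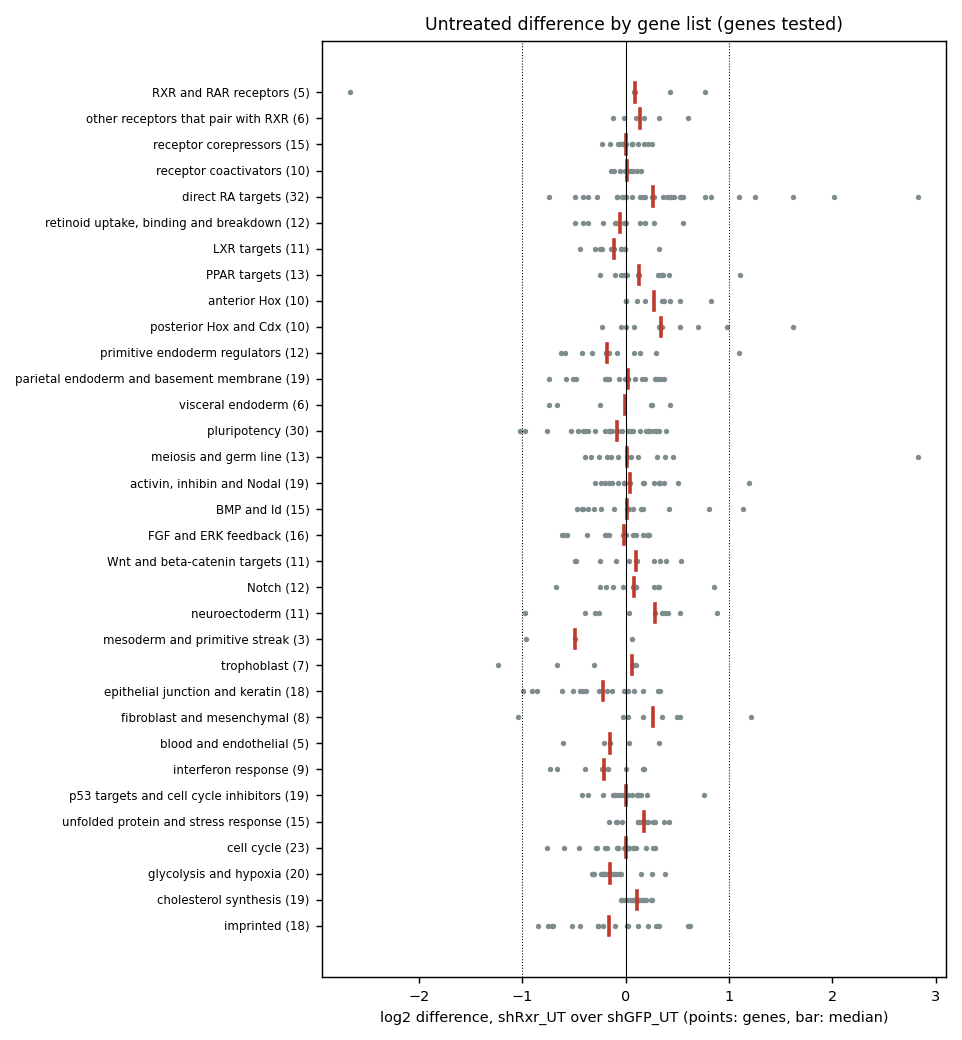
Untreated log2 difference of each compared gene (points) in 33 gene lists, with the number compared in brackets and the median as a red bar; dotted lines mark 2-fold. Single members such as Stra8, at 2.83, lie far from medians that stay between -0.49 and 0.34.

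Read depth was alike in the untreated libraries, and markers of undifferentiated cells had nearly equal sums. Reads counted in genes numbered 11947894 in shRxr_UT, 12089782 in shCtbp2_UT and 12416100 in shGFP_UT, and 9955808 to 13322506 in the RA libraries. Summed levels of 8 markers of undifferentiated F9 cells were 53394 in shRxr_UT, 51667 in shCtbp2_UT and 53469 in shGFP_UT. Of these 8, 4 were above shGFP_UT in shRxr_UT and 4 below, with log2 differences from -0.46 (Lin28a) to 0.29 (Nanog). Summed levels of 8 endoderm markers were 3394, 5335 and 3706 in the same order of libraries. Of 7 fibroblast markers found, summing to 131, 172 and 134 in the same order, Col3a1, Dcn and Postn had 0 reads in shRxr_UT. Of 7 blood and endothelial markers found, summing to 1158, 1286 and 1153, most of the sum was Pecam1, and Hba-a1 had 0 reads in all 3. The endoderm markers, which RA raises in F9 cells, summed to less in shRxr_UT than in shGFP_UT, with 2 of 8 above and 6 below.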

How the data were processed

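Libraries were prepared from total RNA with the TruSeq RNA kit and read on a HiSeq sequencer, per the labels' protocols. The labels gave 6 groups with 1 library each. The submitters' processing notes name TopHat 1.4, HTSeq and build mm9. The version of HTSeq, its strand setting and the annotation are not stated there. The authors deposited log2 values: log2 of the reads of a gene per 10000000 reads counted in genes, plus 1, read from the values themselves. Unlogged and divided by the value of 1 read, 100% of values were whole within 1e-06 of a read, and these reads were used for counting intervals only. All columns matched a library, with 0 left over, and 25 symbols turned into dates were restored from gene identifiers.

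Log2 differences used value + 10, a scale that shrinks differences of low genes, over the 12332 genes with a mean of at least 20. With 1 library a group the untreated pair has no replicate check, so genes were counted at 2-fold. Fold intervals are 95% Clopper-Pearson intervals of the reads and cover counting error only; a count of 0 was read as up to 3 reads. The trend model used limma 3.58.1 in R 4.3.3, with 2 residual and 11.2 prior degrees of freedom and an adjusted threshold of 0.05. It was checked on simulated data in which all lines shared the same RA response and shRxr had the same effect at both treatments. That check does not cover lines that respond differently to RA. With no replicate cultures, the residual of the model is how far these libraries depart from added line and treatment effects. The p-values therefore do not measure variation between cultures. Tables and intervals were computed in Python 3.11.15 with scipy 1.17.1, pandas 2.3.3 and numpy 2.4.6, and figures drawn with matplotlib 3.10.9. GC content and length came from GENCODE M21 transcripts, for 98.4% of genes.

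Named genes were the RXR and RAR genes, the markers Stra8, Cdx1, Gpr124 and Inhbb, the 15 highest and 15 lowest genes with a mean of at least 50, in each list the members at least 2-fold apart with its highest and lowest member, limma calls, and the 10 highest and 5 lowest RA-raised genes. Other names, such as Dusp9, Nhs, Zan, Kcnj4 and Prph, were picked after their values were seen. The genes and the 33 lists were chosen with earlier results of these data known. Alternatives were other pseudocounts, filters and scalings, a GC and length correction, another choice of RA genes, voom and leaving out libraries. Results for a few genes are not reported here.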

Additional observations from a re-analysis of the deposited data

Results flagged for a closer look

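The gene Ptges was 2-fold apart in opposite directions in the 2 pairs of libraries: its log2 difference was 1.25 in shRxr_UT over shGFP_UT and -1.27 in shRxr_RA over shGFP_RA, 2.52 apart. Foxa1 did the same, at 1.10 untreated and -1.42 with RA, 2.51 apart. Prph, an intermediate filament gene of neurons, was at 1.03 untreated and -1.30 with RA, 2.33 apart, and the potassium channel gene Kcnj4 at 1.17 and -1.01, 2.19 apart. With 1 library in each group these differences between the untreated and the RA pair were not tested. Kcnj4 stood at 54.4 in shRxr_UT, 18.5 in shGFP_UT, 59.3 in shRxr_RA and 129.9 in shGFP_RA, and Prph at 178, 82.2, 307 and 772 in the same order.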

How the results depend on the processing

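Of 122 single-gene differences recomputed under other pseudocounts, filters, scalings and the GC and length correction 121 kept their direction, and Hoxb2, at 0, had -0.08 under that correction. A pseudocount or a filter cannot change a direction, so only the scalings and the correction could have done so. Counts at 2-fold depended most on the pseudocount. With a pseudocount of 1 there were 135 higher and 48 lower genes, 98 RA-raised genes higher and 15 lower, 8 direct RA targets higher, and 9 higher and 23 lower in both pairs. With 50 there were 9 higher and 3 lower, 6 RA-raised genes and 2 direct targets higher, and 1 higher in both pairs, and Rxra had a log2 difference of -2.21. A pseudocount changes the weight of low genes by construction. A minimum mean of 100 left 4 lower genes and 3 higher in both pairs, and no minimum gave 13 lower. Upper quartile and median-of-ratios scaling each gave 44 higher and 9 lower. The GC and length correction gave 22 RA-raised genes higher and 2 genes lower in both pairs. With RA-raised taken as at least 2-fold, 1 of those genes was lower. In limma over both treatments Rxra, the 1 gene lowered, was lost with no minimum (adjusted p = 0.13 by limma, 646 genes at an unadjusted p under 0.05), leaving 0. Leaving out each library in turn gave 0 to 20 genes lowered and 0 to 5 raised. The count lowered was 0 without shGFP_RA (Rxra adjusted p = 0.47 by limma, 7 genes at an unadjusted p under 0.05), without shCtbp2_UT (0.099, 297 genes) and without shCtbp2_RA (0.10, 299 genes), each with 1 residual degree of freedom, and 2 were raised without shRxr_RA. Leaving out shGFP_UT or shRxr_UT was added after seeing the data: without shGFP_UT Rxra had an adjusted p of 0.19 by limma and 1 gene, Cyp26b1, was lowered, and without shRxr_UT, which leaves shRxr_RA, 20 were lowered and 5 raised. Voom on the recovered reads lowered 1 gene, Rxra (adjusted p = 0.035), and raised 0, with 159 genes at an unadjusted p under 0.05. The cause was not tested where none is named. No paired analysis was possible because each group holds a single library and the labels give no replicate numbers. Genes with under about 20 normalised reads are limited by depth.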

Other observations

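Some lists leaned one way by small amounts, with no member 2-fold apart. Over all genes 6321 were above 0 and 6006 below. Of 20 compared genes of glycolysis and hypoxia 17 were below 0 in shRxr_UT over shGFP_UT, with a median log2 difference of -0.16 and Bnip3, a mitophagy receptor, lowest at -0.33. Of 19 genes of cholesterol synthesis 15 were above 0, with a median of 0.10 and Fdft1, which makes squalene, highest at 0.25. Of 15 genes of the unfolded protein and stress response 11 were above 0, with a median of 0.17. The 18 compared genes of the imprinted list did not lean by count, with 8 above 0 and 10 below, and had a median of -0.16. Their range ran from Meg3, at 262 normalised reads in shRxr_UT and 480.0 in shGFP_UT, to Grb10, at 511 in shRxr_UT and 329 in shGFP_UT. The list leaves out Peg12, which was 2-fold higher untreated, at 52.7 in shRxr_UT and 16.9 in shGFP_UT (3.12-fold, 1.88 to 5.38). The median over all genes was 0.01.

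Notch4, a Notch receptor gene, was higher in shRxr than in shGFP at both treatments, short of 2-fold untreated. It stood at 588 in shRxr_UT, 371 in shCtbp2_UT and 319.7 in shGFP_UT (1.84-fold, 1.62 to 2.08), and at 288 in shRxr_RA, 298 in shCtbp2_RA and 77.3 in shGFP_RA. Of 48 genes higher untreated 34 had a RefSeq promoter entry, and 0 of these windows held a direct repeat of the receptor hexamer with a spacing of 1, 2 or 5 bases, while 14 held a hexamer. Of 8707 promoters of compared genes 3616 held a hexamer, and 22, 12 and 4 held a repeat spaced by 1, 2 and 5 bases.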
